A study of Medicago truncatula with 9 samples.

Results

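The miR2592 family was the largest family of known miRNAs in the count table of *Medicago truncatula* seedlings. Its members are the entries whose name is mtr-miR2592 followed by the letters of a locus and, in some names, by the arm of the hairpin (5p or 3p). This gave 79 of the 905 entries counted, or 11.5% of the 684 known ones. The next family by number of entries, miR2630, had 25. Small RNA was sequenced from entire 3 day-old seedlings of the genotype R108. The salt seedlings were kept in a 20 mM mixture of NaCl and Na2SO4, the alkali seedlings in a 5 mM mixture of Na2CO3 and NaHCO3, and the control seedlings in distilled water, each for 72 h. There were 3 libraries per condition, named SS1 to SS3 (salt), AS1 to AS3 (alkali) and DW1 to DW3 (distilled water). The methods call the 3 RNA preparations of a condition biological replicates and describe 1 dish per condition. Whether they came from separate dishes is not stated, so the p-values measure the spread between these libraries, and the salt and alkali solutions differ in concentration as well as in kind.

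Plant miRNAs are cut from a hairpin transcript by the DICER-LIKE 1 enzyme as a duplex of short strands with an overhang at each 3′ end. One strand is then bound by an ARGONAUTE protein and guides it to complementary mRNAs, while the other strand, the miRNA star, is mostly degraded. Some miRNA families are restricted to a single lineage of plants, unlike the conserved families that all seed plants share. In which plants miR2592 occurs was not examined here. In whole seedlings, fewer cells that make a miRNA and less of it per cell cannot be told apart.

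The sequences of 3 members were at hand. They come from a list of alkali-responsive miRNAs that was drawn up in the study from these same libraries, with another test and threshold than those used here. They are shown because the members are complementary to each other, and being on that list is no independent evidence of a response. The seed (bases 2 to 8) is in capitals.
mtr-miR2592h: aAAUGCUUgaguccuguuguu
mtr-miR2592ao: aAAUGCUUgaguccuguuguu
mtr-miR2592ae: cAACAGGAcucaagcauuucg
mtr-miR2592h and mtr-miR2592ao have the same 21-nt mature sequence, which starts with A. mtr-miR2592ae, also 21 nt, starts with C and has another seed. In *Arabidopsis*, small RNAs of 21 nt that start with A are mainly bound by ARGONAUTE 2 and those that start with C by ARGONAUTE 5, while most miRNAs start with U and are bound by ARGONAUTE 1. Which protein binds these strands was not measured here.

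The shared sequence and mtr-miR2592ae are complementary. Bases 1 to 19 of each paired with the other in full, which left the last 2 bases of both as 3′ overhangs, shown in capitals below.
mtr-miR2592h, overhang: aaaugcuugaguccuguugUU
mtr-miR2592ae, overhang: caacaggacucaagcauuuCG
DICER-LIKE 1 leaves duplexes of this shape, but whether these entries come from 1 hairpin was not analysed here. mtr-miR2592h had 3.68 to 7.94 counts for each count of mtr-miR2592ae over the 9 libraries, so the sequence that starts with A was the more abundant one in each library. In spite of their identical sequence, mtr-miR2592h and mtr-miR2592ao did not have identical counts. mtr-miR2592ao was 3 to 15 counts higher in each library, which was 1.08% to 3.90% of its own count.

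Many entries of the family could not be separated by their counts. The 79 entries held 40 distinct count profiles, where a profile is the set of counts over the 9 libraries, and 1 profile was shared by 12 entries. Enough counts for a test were reached by 68 entries (30 profiles), all with at least 1 count in each of the 9 libraries. Of the 68, 52 (76.5%) had a count profile identical to that of another member. Among the 383 other known entries tested this held for 148 (38.6%). Many of the 30 profiles differed from each other by a few counts. When entries were linked wherever their counts differed by at most 15% of the larger one in every library, a limit set after the values were seen, the 68 entries fell into 7 groups. Links were chained, so members of a group could differ by more than 15%. This was so in the mtr-miR2592b-5p group, where counts in a library differed by up to 22.8% of the largest. How reads that match several entries were assigned is not given in the sources used here, so entries of 1 group may be 1 measurement listed several times. Counts are given below over the 30 profiles, as for all other miRNAs, and also over the 7 groups.

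The 7 groups are named by their member with the most counts. The mtr-miR2592bm-3p group had 2 entries with identical counts, both 21 nt. The mtr-miR2592ap group had 18 entries and the mtr-miR2592bo-3p group 22, all of them 21 nt. The mtr-miR2592bo-3p group includes mtr-miR2592h and mtr-miR2592ao, whose sequence is shown above. The mtr-miR2592b-5p group had 20 entries, of which 19 were 22 nt, a length known in plants for starting the production of secondary siRNAs from a target. The remaining groups were mtr-miR2592s-5p with mtr-miR2592ab, mtr-miR2592ae alone, and mtr-miR2592bj with mtr-miR2592bi and mtr-miR2592bk. Over the whole family 54 entries were 21 nt, 24 were 22 nt and 1 was 20 nt.

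Despite its number of entries, the family was a small part of the seedling miRNA pool. With each identical profile counted once, it took 0.168% ± 0.0291 of the miRNA counts in salt, 0.171% ± 0.0101 in alkali and 0.199% ± 0.00411 in distilled water (SD, n = 3 each). With 1 entry for each near-identical group these shares were 0.0554%, 0.0493% and 0.0686%, and with every entry counted 0.456%, 0.477% and 0.537%. The order of the conditions depended on the denominator: of clean reads the family took 0.0242% in salt, 0.0275% in alkali and 0.0244% in distilled water, and of the scaled library size 0.165%, 0.197% and 0.168%. Summed over all entries, the salt libraries held 3918174 to 7191272 counts, the alkali libraries 4135854 to 6503979 and the distilled water libraries 3746957 to 4554748. Levels are given below as counts per 1000000 of the library total after scaling by the trimmed mean of M-values (CPM). The scaling factors ranged from 0.768 in AS1 to 1.35 in DW1, the widest departures among the libraries, and results that depend on them are named where they occur.

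mtr-miR2592bm-3p had the highest level in the family, with a mean of 289 CPM over the 9 libraries and rank 58 among the 303 known profiles tested. The mtr-miR2592ap group followed at 135 to 140 CPM and the mtr-miR2592bo-3p group at 57.0 to 62.0 CPM. Then came mtr-miR2592s-5p at 28 CPM and mtr-miR2592b-5p at 23.1 CPM, whose libraries overlapped, mtr-miR2592ae at 12 CPM and mtr-miR2592bj at 3.34 CPM. The median over the 30 profiles, 27.0 CPM, was close to the 28.3 CPM of the 273 profiles of other known miRNAs, whose highest was 407321 CPM. The 30 profiles ran from rank 58 to rank 278, with the mtr-miR2592ap group at ranks 80 to 84.

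**Figure D1:**
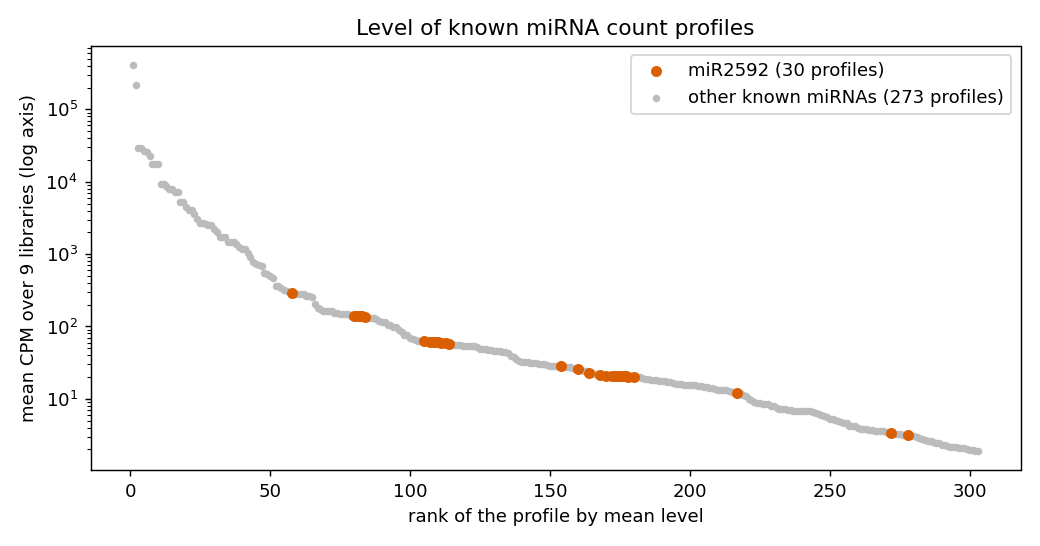
Mean CPM over the 9 libraries (log axis) against the rank of each known count profile tested, with the 30 miR2592 profiles in orange and the 273 others in grey. The family sits from rank 58 (mtr-miR2592bm-3p) downwards, in clumps that are the near-identical groups.

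The spread between libraries of 1 condition was small in most of the family. The median coefficient of variation of CPM over its 30 profiles was 10.7% in salt, 14.5% in alkali and 11.1% in distilled water, against 14.7%, 17.3% and 21.7% for the other known profiles in the same conditions. These are descriptions, since profiles of 1 group hold nearly the same counts. mtr-miR2592bm-3p had the lowest value, 1.49% in distilled water, and the scarce mtr-miR2592bj and mtr-miR2592bi had the highest in salt and in distilled water.

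The family was tested in the comparison of salt with distilled water, which asks which miRNAs respond to neutral salt. Of the 30 profiles, 0 passed an adjusted p under 0.05 with a fold change over 1.5 (quasi-likelihood test of edgeR, p-values adjusted by Benjamini-Hochberg over all 647 entries tested). DESeq2 and limma also called 0, and 0 of the 30 had an unadjusted p under 0.05. Over the 490 distinct profiles tested, 8.57% were called (4.69% higher, 3.88% lower) and 24.5% had an unadjusted p under 0.05. The median log2 fold change of the family was -0.01, with a range of -0.22 to 0.14, and that of all profiles was -0.04. The 95% interval of the change lay within 1.5-fold in either direction for 27 of the 30 profiles, which was so for 117 of the 490 profiles in all. The exceptions were mtr-miR2592bj, mtr-miR2592bi and mtr-miR2592ae, the tested members with the fewest counts. Of the leading members of the 7 groups, 5 had such an interval, and their median log2 fold change was -0.03.

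mtr-miR2592bm-3p was the 1 profile whose salt and distilled water libraries did not overlap, which held for 24.1% of all profiles (lower in salt for 10.6%). It was at 308, 262 and 291 CPM in SS1 to SS3, against 322, 327 and 332 CPM in DW1 to DW3. All 3 salt libraries lay below the distilled water libraries, by a margin smaller than the spread among the salt libraries themselves. Its log2 fold change was -0.19 (standard error 0.162, adjusted p = 0.485 from edgeR, and 0.178 to 0.806 over the alternative settings). With library sizes of clean reads the libraries overlapped. mtr-miR2592bj had the largest log2 fold change in size, -0.22 (standard error 0.462, adjusted p = 0.860 from edgeR, and 0.503 to 0.9996 over the alternatives), at 9, 18 and 18 counts in the salt libraries and 7, 21 and 22 counts in the distilled water libraries. mtr-miR2592bi was next to it in the same group, with a log2 fold change of -0.14 (adjusted p = 0.905 from edgeR, and 0.588 to 0.98 over the alternatives). The sign of both turned without DW2 or DW3, and that of mtr-miR2592bi also without SS1 or SS3.

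In alkali against distilled water the groups of the family had fold changes of both signs, and no member passed both thresholds of the test. edgeR called 0 of the 30 profiles, as did DESeq2 and limma, where 19.2% of the 490 profiles in all were called by edgeR (9.18% higher, 10% lower). In DESeq2 some members of the mtr-miR2592bo-3p group missed a call by the fold threshold alone. Adjusted p from DESeq2 was 0.0260 for mtr-miR2592h, 0.0259 for mtr-miR2592ao and 0.0293 for mtr-miR2592bo-3p. Their log2 fold changes there, 0.58, 0.58 and 0.54, were short of 1.5-fold. edgeR with DESeq2's size factors gave these 3 members adjusted p = 0.0344, 0.0343 and 0.0362, again short of 1.5-fold. In the main edgeR fit 11 profiles (36.7%) had an unadjusted p under 0.05, 10 higher and 1 lower. Of all profiles 43.3% did (19.8% higher, 23.5% lower). The 11 belonged to 4 of the 7 groups: 8 to the mtr-miR2592bo-3p group and 1 each to the mtr-miR2592ap, mtr-miR2592ae and mtr-miR2592bm-3p groups. DESeq2 gave 14 at that threshold and limma 13. The 11 became 0 without AS1, 0 without AS1 and DW1, 1 without AS2, 1 with library sizes of clean reads and 3 with miRNA totals. The share of all profiles at that threshold was worked out for the main edgeR fit only, so these counts have none beside them. Without DW3 or without AS3 some members were called, as given below. The family had a median log2 fold change of 0.20 (-0.38 to 0.62), and all profiles had -0.14. Over the 7 leading members the median was 0.16. The 95% interval lay within 1.5-fold for 3 profiles and 1 leading member, and within 2-fold for 27 profiles and 5 leading members.

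The members with the highest fold changes in alkali were mtr-miR2592ae, mtr-miR2592h and mtr-miR2592ao. Their sequences, shown above, came from a list of alkali-responsive miRNAs drawn up from these same libraries, so this match is no independent evidence. The other profiles of the mtr-miR2592bo-3p group were close to mtr-miR2592h and mtr-miR2592ao, with log2 fold changes of 0.43 to 0.44. mtr-miR2592ae was at 18.8, 15.1 and 14 CPM in AS1 to AS3, against 8.11, 10.1 and 12.9 CPM in DW1 to DW3. Every alkali library was above every distilled water library, by a small margin between AS3 and DW3. Its fold change was 1.54 (95% interval 1.08 to 2.21), with a log2 fold change of 0.62 (standard error 0.250, adjusted p = 0.0704 from edgeR, and 0.0103 to 0.573 over the alternatives). mtr-miR2592h was at 75.7, 75.8 and 60.4 CPM in the alkali libraries and 45.9, 51.0 and 56.5 CPM in the distilled water libraries. Here too AS3 and DW3 were the nearest to each other. The fold change of mtr-miR2592h was 1.38 (95% interval 1.07 to 1.79), and the log2 fold change was 0.47 (adjusted p = 0.0632 from edgeR, and 0.0184 to 0.966 over the alternatives). mtr-miR2592ao, of the same sequence, had a log2 fold change of 0.47 and the same adjusted p of 0.0632 (0.0186 to 0.966 over the alternatives).
These members did pass the test in some settings. Without DW3, mtr-miR2592ae, mtr-miR2592h, mtr-miR2592ao and mtr-miR2592bp-5p were called higher in alkali, at adjusted p = 0.0103, 0.0214, 0.0236 and 0.0243 (edgeR). Without AS3, mtr-miR2592ae, mtr-miR2592h and mtr-miR2592ao were called, at adjusted p = 0.0314, 0.0184 and 0.0186 (edgeR). With DESeq2's size factors in edgeR mtr-miR2592ae was called (adjusted p = 0.0408). All of these members but mtr-miR2592ae belong to the mtr-miR2592bo-3p group, and mtr-miR2592h and mtr-miR2592ao have the same sequence. The share of all profiles called in these settings was not worked out.

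The most abundant member lay on the other side. mtr-miR2592bm-3p was at 225, 262 and 269 CPM in AS1 to AS3, against 322, 327 and 332 CPM in DW1 to DW3. The conditions did not overlap, and the distilled water libraries lay within a narrow range. Its level in alkali was 0.771 times that in distilled water (95% interval 0.611 to 0.973), with a log2 fold change of -0.38 (standard error 0.162, adjusted p = 0.0854 from edgeR, and 0.00660 to 0.399 over the alternatives). The lowest of these adjusted p-values came with libraries scaled by their miRNA totals alone, where mtr-miR2592bm-3p was called lower with a log2 fold change of -0.81.

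The other groups lay between these. The 8 profiles of the mtr-miR2592bo-3p group had log2 fold changes of 0.43 to 0.47 in alkali (adjusted p 0.0632 to 0.0728 from edgeR), with alkali above distilled water in all libraries for each of the 8. mtr-miR2592bo-3p itself was at 79.6, 80.9 and 65.2 CPM in the alkali libraries and 50.4, 56.5 and 61.2 CPM in the distilled water libraries. For the 5 profiles of the mtr-miR2592ap group the values were 0.34 to 0.37 (adjusted p 0.113 to 0.128 from edgeR), and mtr-miR2592ap was at 170, 169 and 147 CPM in alkali and 101, 134 and 148 CPM in distilled water. AS3 lay below DW3 for this member, so the conditions overlapped. The 11 profiles of the mostly 22-nt mtr-miR2592b-5p group had 0.14 to 0.21, and mtr-miR2592s-5p and mtr-miR2592ab both had -0.07. The conditions overlapped in the last 2 groups.

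**Figure D2:**
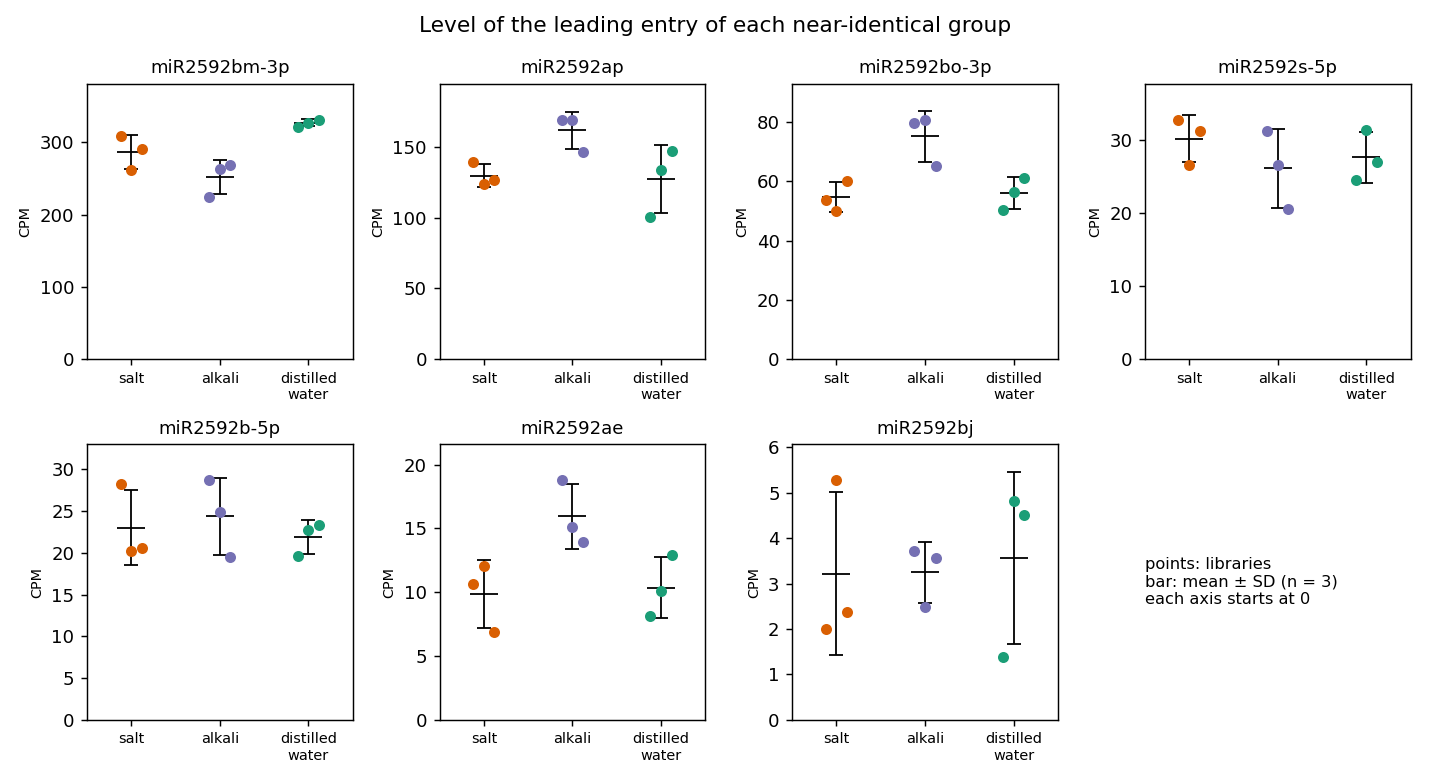
CPM of the leading member of each near-identical group in the salt, alkali and distilled water libraries, with a point for each library and the mean ± SD (n = 3) in black. mtr-miR2592bm-3p is lowest in alkali (225 to 269 CPM against 322 to 332 in distilled water), while mtr-miR2592bo-3p and mtr-miR2592ae are highest there.

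The alkali and distilled water libraries did not overlap for 10 of the 30 profiles, against 36.1% of all profiles. Of these, 9 were higher in alkali, where this held for 16.9% of all profiles, and 1 was lower, where it held for 19.2%. The 9 were the 8 profiles of the mtr-miR2592bo-3p group and mtr-miR2592ae, and the 1 was mtr-miR2592bm-3p, so 3 of the 7 groups were concerned. These counts depended on the scaling of the libraries. With DESeq2's size factors 14 profiles were higher and 1 lower, where this held for 22% and 13.5% of all profiles. With library sizes of clean reads 0 were higher and 1 lower, against 5.71% and 28.8% of all profiles. With miRNA totals and no scaling factor 0 were higher and 14 lower, against 4.9% and 44.9% of all profiles. In that last scaling the median log2 fold change in alkali was -0.25 for the family and -0.59 for all profiles, so the signs of mtr-miR2592ap, mtr-miR2592bo-3p and mtr-miR2592e-5p turned. Set against the median of all profiles, the median of the 30 family profiles was 0.34 higher on the log2 scale with the trimmed mean of M-values, 0.35 with DESeq2's size factors, 0.34 with miRNA totals and 0.36 with clean reads. A scaling moves all profiles of a library together, so it is nearly without effect on this difference. The median of the 30 counts near-identical profiles separately. Over the 7 leading members the median log2 fold change was 0.16 with the trimmed mean of M-values, against -0.14 for all profiles. mtr-miR2592bm-3p, the most abundant member, lay below that value, at -0.38.

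In the direct comparison of alkali with salt, which asks where the treatments differ at the doses used, 0 of the 30 profiles were called by edgeR, DESeq2 or limma, against 3.47% of all profiles by edgeR (2.65% higher, 0.816% lower). At an unadjusted p under 0.05 there were 9 of 30, all higher in alkali, against 16.5% of all profiles (7.14% higher, 9.39% lower). DESeq2 gave 12 and limma 9, and the 9 became 3 without AS2 or SS2, 14 without DW1, 1 with library sizes of clean reads and 0 with miRNA totals. Here too the share of all profiles was worked out for the main edgeR fit only. The 9 were mtr-miR2592ae and the 8 profiles of the mtr-miR2592bo-3p group. Libraries did not overlap for 14 profiles, against 23.1% of all profiles, and all 14 were higher in alkali, where this held for 10.8%. The further 5 were the mtr-miR2592ap group, so the 14 profiles belonged to 3 of the 7 groups and the 9 to 2. With miRNA totals 2 profiles did not overlap and were higher, against 3.47% of all profiles, and 0 were lower, against 25.1%. With clean reads 1 was higher, against 5.51%, and 0 were lower, against 17.1%. The median log2 fold change was 0.21 in the family, 0.09 over its 7 leading members and -0.07 over all profiles.

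mtr-miR2592ae was at 18.8, 15.1 and 14 CPM in the alkali libraries and 10.7, 12 and 6.85 CPM in the salt libraries. Its level in alkali was 1.67 times that in salt (95% interval 1.16 to 2.40), with adjusted p = 0.126 from edgeR (0.0482 to 0.439 over the alternatives). mtr-miR2592h was at 75.7, 75.8 and 60.4 CPM in alkali, against 48.8, 44.3 and 54.4 CPM in salt, a fold change of 1.43 (95% interval 1.11 to 1.86, adjusted p = 0.132 from edgeR, 0.0422 to 0.425 over the alternatives). Each of these members was above every salt library in every alkali library. mtr-miR2592ao had a log2 fold change of 0.51 (adjusted p = 0.132 from edgeR, 0.0457 to 0.437 over the alternatives), mtr-miR2592bo-3p 0.46 and mtr-miR2592ap 0.32. mtr-miR2592bm-3p overlapped between alkali and salt, with a log2 fold change of -0.19 (adjusted p = 0.651 from edgeR, 0.290 to 0.944 over the alternatives). Without AS3, mtr-miR2592ae, mtr-miR2592h and mtr-miR2592ao were called, at adjusted p = 0.0482, 0.0422 and 0.0457 (edgeR). The last of these have the same sequence as each other, and the share of all profiles called without AS3 was not worked out. The comparisons of alkali with salt and with distilled water share the alkali libraries, so their values are not independent of each other.

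**Figure D3:**
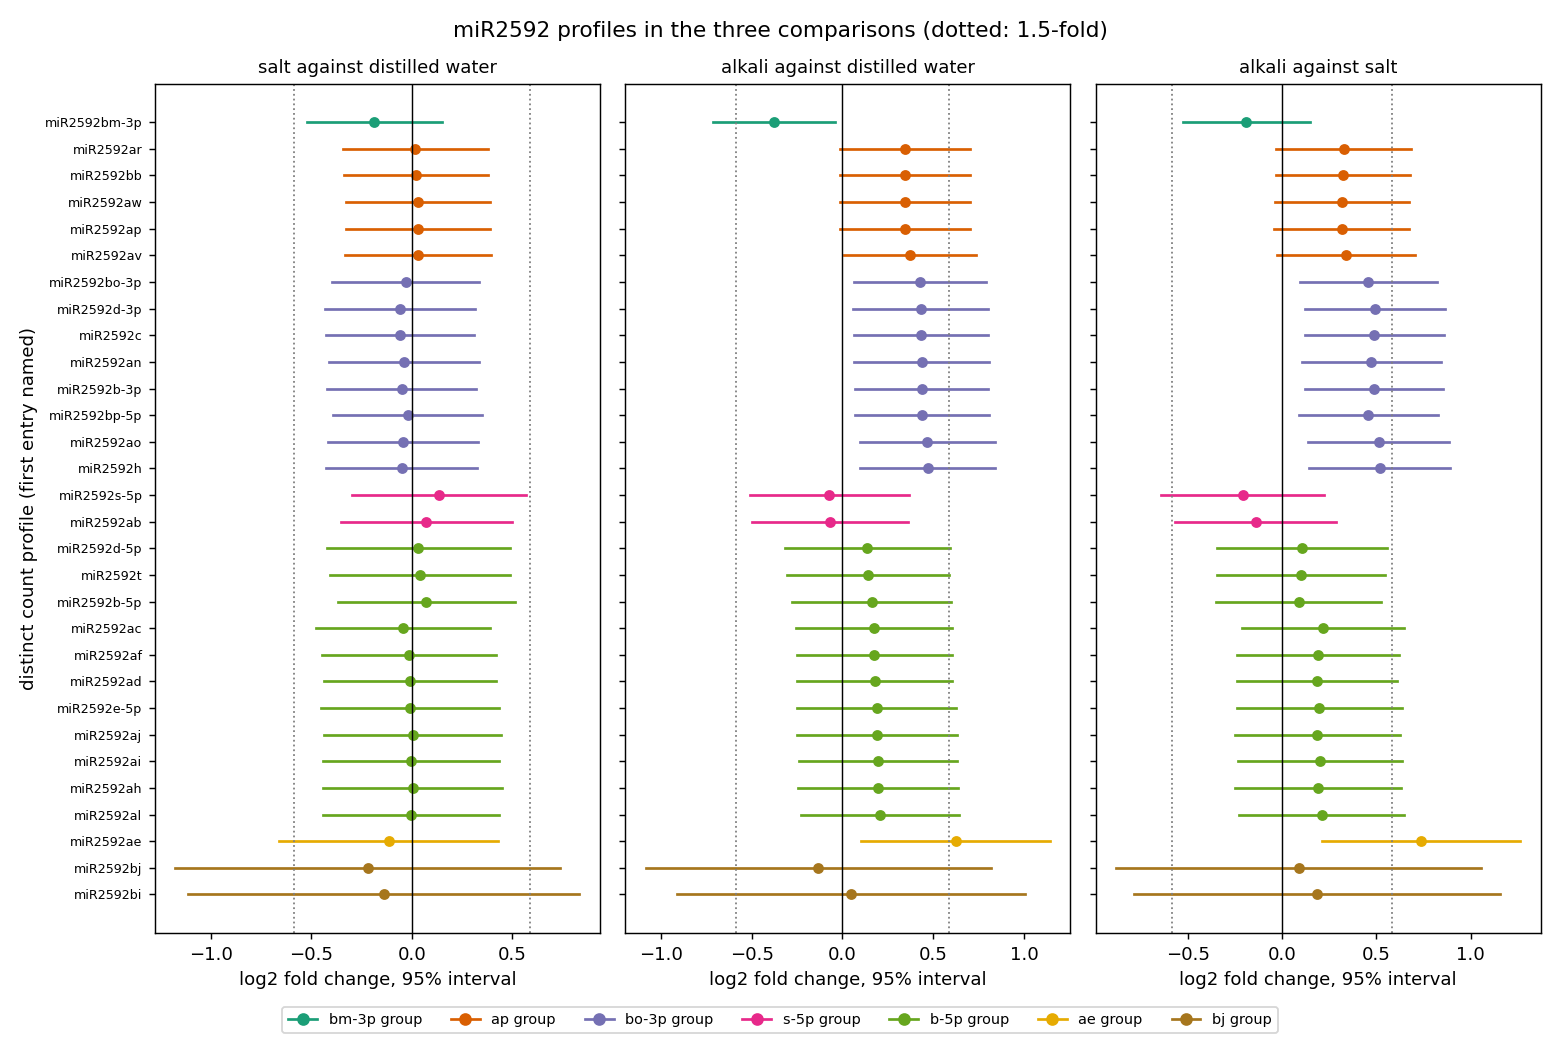
Log2 fold change (point) and 95% interval (line) of each of the 30 miR2592 profiles in 3 panels (salt and alkali, each against distilled water, then alkali against salt), coloured by near-identical group, with dotted lines at 1.5-fold. In salt the points lie from -0.22 to 0.14, while in alkali against distilled water they spread from -0.38 (mtr-miR2592bm-3p) to 0.62 (mtr-miR2592ae).

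Ratios of members within a library do not depend on how the libraries are scaled. They were taken after the values above were seen and are given as a description, with no test. The denominator, mtr-miR2592bm-3p, had the lowest log2 fold change of the family in alkali against distilled water. Higher ratios in alkali for members that were higher there follow in part from that choice. For each count of mtr-miR2592bm-3p, mtr-miR2592bo-3p had 0.174, 0.191 and 0.207 counts in the salt libraries, 0.354, 0.308 and 0.242 in the alkali libraries and 0.157, 0.173 and 0.185 in the distilled water libraries. The alkali libraries lay above all 6 others. For mtr-miR2592ap the ratios were 0.452, 0.473 and 0.435 in salt, 0.755, 0.645 and 0.546 in alkali and 0.313, 0.409 and 0.445 in distilled water, again with alkali above all others. mtr-miR2592ae had 0.0346, 0.0459 and 0.0235 in salt, 0.0836, 0.0575 and 0.0519 in alkali and 0.0252, 0.0309 and 0.0389 in distilled water, in the same order. For mtr-miR2592e-5p, of the 22-nt group, the means were 0.0690 ± 0.00918 in salt, 0.0915 ± 0.0251 in alkali and 0.0611 ± 0.00582 in distilled water (SD, n = 3 each), and for mtr-miR2592s-5p they were 0.105 ± 0.00294, 0.106 ± 0.0318 and 0.0846 ± 0.0103. For these last members the alkali libraries overlapped the salt libraries, and mtr-miR2592s-5p also overlapped with distilled water. AS1, which had the lowest scaling factor, had the highest ratio of the 9 libraries for each of the 5 members.

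**Figure D4:**
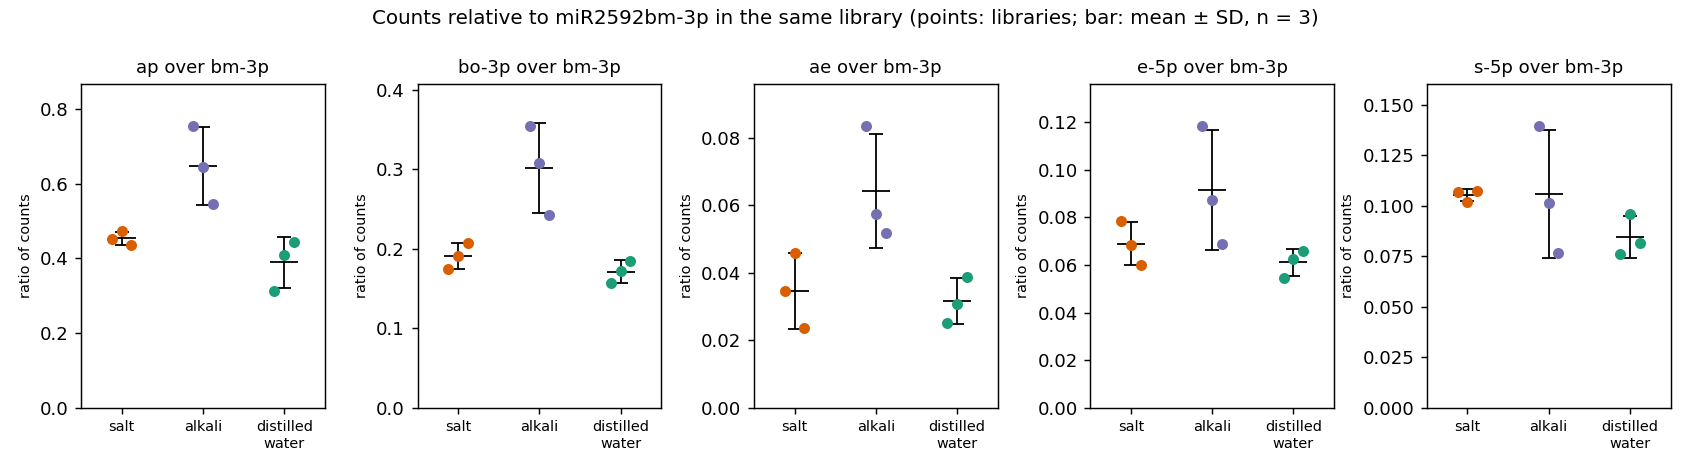
Counts of 5 miR2592 members divided by the counts of mtr-miR2592bm-3p in the same library, with a point for each salt, alkali and distilled water library and the mean ± SD (n = 3). For mtr-miR2592ap, mtr-miR2592bo-3p and mtr-miR2592ae the alkali points lie above all the others. The denominator was chosen after the values were seen and had the lowest log2 fold change of the family in alkali against distilled water.

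Some entries are named by arm, which gives the share of the 3p arm in the counts listed for a hairpin. Both arms were listed for 13 hairpins, and both had at least 10 counts over the 9 libraries for 11 of them. In miR2592b, miR2592d, miR2592e, miR2592o and miR2592q the 3p arm belonged to the mtr-miR2592bo-3p group and the 5p arm to the mtr-miR2592b-5p group, and the 3p arm took 72.5% to 75.1% of the counts of both arms. The 3p arm took nearly all counts in miR2592bm and miR2592bn (99.7%, 95% exact binomial interval 99.6% to 99.8%), with 12791 counts of the 3p arm and 39 of the 5p arm, and in miR2592bo (99.6%, 99.3% to 99.8%). In miR2592s it took 1.49% (0.902% to 2.32%), so the 5p entry had the more counts. The intervals cover counting error only. These shares depend on which entries are paired. The 3p entries of miR2592b, miR2592bo and miR2592br are in 1 near-identical group, with 2684, 2769 and 2684 counts, and the 3p shares were 72.5%, 99.6% and 99.9% with 1020, 10 and 2 counts of the 5p entries. They therefore describe the listed counts and do not show which strand a single hairpin gave.

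The label of the arm did not always follow the counts. mtr-miR2592bp-5p belonged by its counts to the mtr-miR2592bo-3p group, whose 7 other entries named by arm are all 3p, and it had 2708 counts where mtr-miR2592bp-3p had 9. The scarcest hairpins were miR2592a, with 19 counts of the 5p arm and 11 of the 3p arm, and miR2592bl, with 19 and 34. Both arms of these were below the minimum for a test. mtr-miR2592br-5p had 2 counts, both in AS2. No entry of the family was at 0 in all libraries.

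In the hairpins with at least 100 counts in each arm, the 3p share was compared between conditions. For miR2592e, whose counts miR2592o and miR2592q share, it was 68.3%, 72.5% and 76.7% in the salt libraries, 74.8%, 77.6% and 77.3% in the alkali libraries and 74.1%, 72.9% and 72.9% in the distilled water libraries. Every alkali library was above every distilled water library, and the salt libraries spread over both. For miR2592b it averaged 69.5% ± 4.41 in salt, 75.2% ± 1.64 in alkali and 71.3% ± 0.687 in distilled water (SD, n = 3 each), and for miR2592d 72.5% ± 2.17, 77.8% ± 2.51 and 73.9% ± 2.06. Alkali was above distilled water in all libraries for miR2592b too, and above salt in all libraries for miR2592d. The 3 hairpins share near-identical entries in both arms and are not independent. An exact two-sided permutation test of alkali against distilled water gave p = 0.10 for miR2592b and miR2592e and p = 0.20 for miR2592d. All were 0.30 after Benjamini-Hochberg adjustment over the 9 tests of 3 hairpins, and 0.10 is the smallest p that 3 libraries against 3 allow. In alkali against salt the exact permutation p was 0.20 for miR2592b and miR2592e and 0.10 for miR2592d, and 0.30 for each after adjustment. In salt against distilled water the exact permutation p was 0.70, 0.40 and 0.70 for miR2592b, miR2592d and miR2592e.

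**Figure D5:**
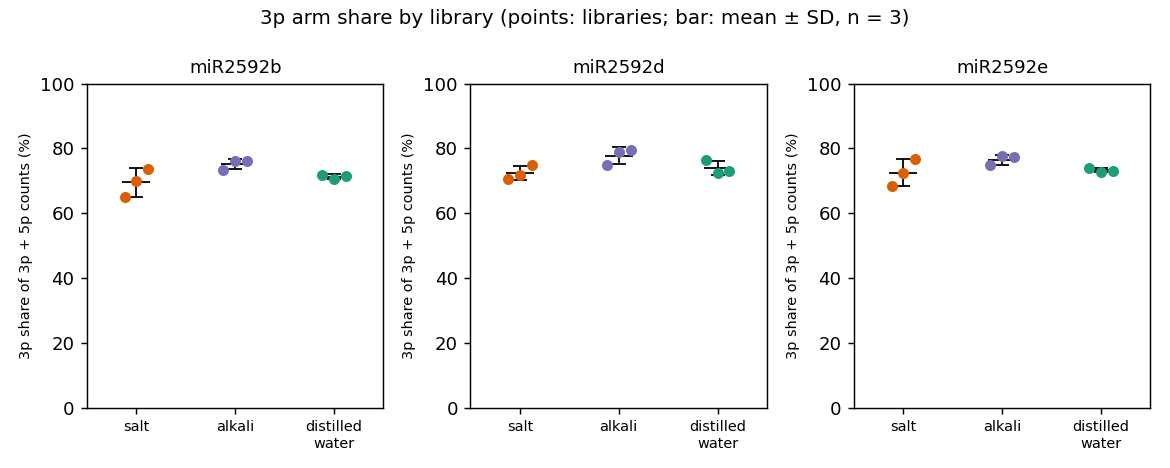
Share of the 3p arm in the counts of both arms, in percent, for miR2592b, miR2592d and miR2592e in the salt, alkali and distilled water libraries, with a point for each library and the mean ± SD (n = 3). The shares lie between 64.9% and 79.7% in all libraries.

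A related family and the miRNAs that act on the miRNA machinery were examined beside miR2592. The family list of the study places mtr-miR5554 under the same family name as miR2592. It had 6 entries, and 3 of them, the 5p arms with 1 shared profile, were tested. mtr-miR5554a-5p was at 3.35 ± 0.721 CPM in salt, 2.90 ± 0.528 CPM in alkali and 3.05 ± 1.12 CPM in distilled water (SD, n = 3 each) and was called in none of the comparisons (unadjusted p from edgeR 0.749 in salt and 0.891 in alkali against distilled water, and 0.648 in alkali against salt). miR162 and miR168, which target DICER-LIKE 1 and ARGONAUTE 1, had 4 tested profiles, of which 0 were called in any comparison by edgeR. In alkali against distilled water 3 of the 4, all miR168, had an unadjusted p under 0.05, which 43.3% of all profiles had, and 0 of the 4 had one in the other comparisons (edgeR). mtr-miR168b and mtr-miR168c-5p, 2 of the 3, had nearly the same counts in each library (6462 and 6466 in SS1). mtr-miR162 was the most abundant, at 1788, 2086 and 1857 CPM in salt, 1796, 1797 and 1611 CPM in alkali and 1235, 1701 and 1643 CPM in distilled water. The 4 profiles had log2 fold changes of 0.29 to 0.33 in salt and 0.18 to 0.48 in alkali against distilled water.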

How the data were processed

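Clean reads of 18 to 30 nt were screened by the authors with Bowtie against other classes of RNA, and the remaining reads were placed on the Mt4.0 genome and compared with miRBase 22. They deposited whole-number counts for each entry, with mature length, and TPM values that are these counts divided by the library's summed count. The TPM values were used only to check this. The submitters' notes name DESeq 1.10.1, which was not used here. Columns were matched to libraries by the sample descriptions (0 unmatched).

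The tests used edgeR 4.0.16 (R 4.3.3). Entries were kept by filterByExpr (minimum count 10), scaled by TMM, and fitted by condition over all 9 libraries with robust dispersions. A call needs an adjusted p under 0.05 (Benjamini-Hochberg) and a fold change over 1.5. The procedure was tested on simulated data. Sequences came from the supplementary tables of the study. Genome positions were not analysed here. The members and lists were chosen with earlier results of these data known. Named are called profiles, the 3 largest changes per comparison, the 10 most abundant profiles, both arms of hairpins and the most abundant member of each list. Leading members of the near-identical groups and mtr-miR2592bp-5p were named after their values were seen. Alternatives were DESeq2 1.42.0, limma-voom (limma 3.58.1), other scalings, filters, thresholds and sample sets, and a replicate block. Clean read totals were taken from the paper.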

Additional observations from a re-analysis of the deposited data

How the results depend on the processing

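Salt against distilled water kept 0 called profiles in all 22 alternatives. In alkali against distilled water, 1 profile was called with DESeq2's size factors in edgeR, 1 with miRNA totals, 1 at an unadjusted p, and 0 to 4 when 1 library was left out. In alkali against salt, 1 was called at an unadjusted p and 0 to 3 when 1 library was left out. The other alternatives, among them leaving out DW1 and AS1 together (chosen after seeing the data), gave 0. Shares of all profiles called, or with an unadjusted p under 0.05, were worked out for the main fit only. Pairing of the libraries by replicate number was not evident (correlations of same-numbered libraries from -0.587 to 0.382), but 3 libraries per condition cannot settle it. With the replicate block 0 profiles were called in each comparison. In alkali against distilled water 6 then had an unadjusted p under 0.05 from edgeR, in place of 11. With every entry counted, the share of the family in the counts moved to 0.456%, 0.477% and 0.537% (salt, alkali, distilled water). Of clean reads it was 0.0242%, 0.0275% and 0.0244%, and with 1 entry per near-identical group 0.0554%, 0.0493% and 0.0686%. Of the scaled library size it was 0.197% in alkali and 0.168% in distilled water. With mtr-miR2592h left out, which has the sequence of mtr-miR2592ao, it was 0.193% in distilled water. The sequences of most members were not at hand, so other members of identical sequence could not be left out. With a library left out, the share was 0.156% to 0.184%, 0.166% to 0.176% and 0.198% to 0.201% (salt, alkali, distilled water). Log2 fold changes that turned in alkali against distilled water were those of mtr-miR2592ap (-0.085), mtr-miR2592bo-3p (-0.019) and mtr-miR2592e-5p (-0.27) with miRNA totals, mtr-miR2592e-5p (-0.0012) without DW1 and AS1, and mtr-miR2592s-5p with DESeq2 (0.042), its size factors (0.043) or a library left out (-0.22 to 0.11). In salt, leaving out a library gave -0.67 to 0.11 for mtr-miR2592bj and -0.58 to 0.21 for mtr-miR2592bi. The cause was not tested. Depth limits mtr-miR2592bj, mtr-miR2592bi and the 11 entries with at most 10 counts in a library.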

Other observations

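Among the entries too scarce for a test, 2 had a high count in AS2 only. mtr-miR2592s-3p had 4, 0 and 2 counts in SS1, SS2 and SS3, 0, 9 and 0 counts in AS1, AS2 and AS3, and 1, 1 and 2 counts in DW1, DW2 and DW3. mtr-miR2592bq-3p had 8 of its 16 counts in AS2 as well. Both were chosen after their values were seen.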
